A study of Mus musculus with 3 samples.

Results

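Krt5, Krt14 and Krt15 are the keratins that mark the basal layer of the epidermis. They are 3 of the 14656 genes measured in all libraries of a single-cell RNA study of mouse embryonic skin, and were taken by name. Each was followed per library through placode, placode-edge, basal and suprabasal cells, to see where the 3 genes move together and where they part. The samples were dorsal skin epithelium of wild-type C57BL/6JOlaHsd embryos at E14.5, the stage when the first hair placodes form. In each sample the epithelial sheets of 3 to 4 embryos of 1 litter were pooled, so a sample has no value for a single embryo. The 2 placode-enriched libraries held live cells sorted as positive for MAdCAM-1, an adhesion molecule on placode cells, and the 1 total epithelium library held live epithelial cells without that gate. The libraries were made with 10x Genomics 3′ chemistry, which reads the 3′ end of RNA molecules and counts each molecule once by a random tag, a unique molecular identifier (UMI).

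Keratins build the intermediate filaments of epithelial cells as pairs of a type II and a type I protein. In the basal epidermis the type II keratin Krt5 pairs with the type I keratin Krt14, and Krt15 is a further type I keratin of basal cells. As keratinocytes leave the basal layer they switch to the type II keratin Krt1 and the type I keratin Krt10. Placodes are local thickenings of the basal layer from which hair follicles grow, and Krt15 is best known as a marker of stem cells in the adult hair follicle bulge.

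All 3 genes lie on the minus strand. On GRCm38 Krt5 spans chr15:101707070-101712898 in 9 exons, Krt14 spans chr11:100203162-100207548 in 8 exons and Krt15 spans chr11:100131758-100135928 in 8 exons. Krt14 and Krt15 are related in coding sequence, so their transcripts were compared for runs in which reads could not be told apart. No window of 31 bases was shared between Krt14 and Krt15 anywhere in these transcripts. The closest stretch lies in exon 3 of both genes and is shown because it is the longest run without a difference, with the 28 identical bases in capitals and 30 bases of coding sequence on each side. The Krt15 copy is chr11:100134215-100134302 and the Krt14 copy chr11:100204988-100205075, both read 5′ to 3′ on the minus strand of GRCm38.
Krt15 coding stretch: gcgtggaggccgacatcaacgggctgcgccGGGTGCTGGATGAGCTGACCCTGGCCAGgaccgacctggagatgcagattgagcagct
Krt14 coding stretch: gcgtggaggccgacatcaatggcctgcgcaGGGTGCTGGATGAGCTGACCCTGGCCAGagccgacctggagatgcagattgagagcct
Between Krt14 and Krt5 the longest shared run was 16 bases, and between Krt15 and Krt5 it was 15. In the last 500 bases of the transcripts, where 3′ libraries read, Krt15 and Krt14 shared at most 17 bases in a row. Of the 470 windows of 31 bases in that end, 0 of Krt5, 81 of Krt14 and 0 of Krt15 occurred in a transcript of any other gene. The 81 windows of Krt14 were all shared with Krt17, a type I keratin of placodes and appendages, and some of them also with Krt16 and Krt42. Krt5 and Krt15 counts therefore rest on 3′ ends with no such window in another annotated gene, while part of the Krt14 end shares windows with Krt17. Whether reads of Krt14 and Krt17 were confused in the counts was not tested.

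The placode-enriched libraries held 1505 and 1569 cells and the total epithelium library 1583 cells after called doublets were removed, with medians of 21642, 23419 and 21975 UMIs in a deposited cell. Pairs of libraries shared at most 2 cell barcodes. Cells were clustered without the keratins, without the marker genes and with only a part of the other genes, and the clusters were then named by marker genes. Neither step used the 3 keratins, but 8 genes of the lists described later (Dst, Col17a1, Itga6, Itgb4, Krt1, Krt10, Trp63 and Ovol1) were among the naming markers, so their differences between classes are part of the definition. Placode-like cells (670, 722 and 96 cells in placode-enriched library 1, placode-enriched library 2 and the total epithelium library) carried the placode genes Dkk4, Edar, Shh and Fgf20. Suprabasal-like cells (55, 59 and 304) carried Krt1 and Krt10. Basal-like cells (508, 532 and 1125) carried the basal markers Trp63, Col17a1, Dst, Wnt4, Wnt3 and the integrins Itga6 and Itgb4. Trp63 stood at 257 to 273 CPM in the basal-like clusters and 108 CPM in the suprabasal-like cluster. In the placode-like clusters it stood at 250 to 330.5 CPM, so it did not set basal-like cells apart from placode-like cells. Wnt3 did not either, at 54.71 to 88.85 CPM in the basal-like clusters and 80.6 to 105.3 CPM in the placode-like clusters. Each placode-like cluster met 4 of the 7 basal markers. Most basal-like cells of the placode-enriched libraries fell in clusters 8 and 10, and most of those of the total epithelium library in clusters 0, 1 and 3. Basal-like cells of the placode-enriched libraries had passed the MAdCAM-1 gate and held 11.6 and 11.9 CPM of Madcam1 (UMIs of the gene in each 10 to the power of 6 UMIs), against 1.40 CPM in the total epithelium library. The rest were 46 cells in an unnamed cluster and 21 melanoblast-like cells.

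The label of a placode edge did not hold up against its single marker. One cluster (254, 231 and 34 cells) met neither the placode nor the basal rule and held Sostdc1, a secreted inhibitor found around placodes, at 847, 784 and 856 CPM. Basal-like cells of the placode-enriched libraries held as much, 861 and 764 CPM, and those of the total epithelium library 507 CPM. The cluster was led by Steap4, Cldn10, Wif1 and Bdnf. Edar stood at 95.7, 84.0 and 113 CPM, above placode-like cells at 76.7, 74.2 and 62.1 CPM. Trps1, a placode marker, was also above them, at 152, 177 and 149 CPM against 112, 125 and 72.9 CPM. Wif1 stood at 210, 234 and 278 CPM, against 103, 106 and 61.1 CPM in placode-like cells. For Bdnf the values were 169, 188 and 176 CPM, against 104, 111 and 64.7 CPM. Dkk4 stood at 104, 89.5 and 130 CPM, between placode-like cells at 526, 426 and 625 CPM and basal-like cells at 23.4 CPM or less. Shh also lay between these classes, at 32.1, 39.6 and 28.7 CPM. These cells are called intermediate cells here, with no claim about their place in the skin. The name holds for Dkk4 and Shh, and not for Edar, Trps1, Wif1 or Bdnf. Of the 34 intermediate cells of the total epithelium library, 2 held 10 or more UMIs of the fibroblast genes Col1a1, Col3a1 and Lum. The keratin levels and main tested keratin differences of this group are also given without these 2 cells. Its ratios of UMIs, list counts and levels of other genes include them.

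Krt15 and Krt14 were both higher in basal-like cells than in every other class, Krt15 by far more. It averaged 435 ± 187 CPM in placode-like, 371 ± 93.4 CPM in intermediate, 490 ± 274 CPM in suprabasal-like and 1729 ± 610 CPM in basal-like cells (SD, n = 3 libraries). Krt5 divided the tissue differently, with 572 ± 134 CPM in placode-like, 642 ± 56.5 CPM in intermediate, 1361 ± 214 CPM in suprabasal-like and 1395 ± 240 CPM in basal-like cells. Krt14 averaged 2015 ± 198 CPM in placode-like, 2257 ± 76.2 CPM in intermediate, 1541 ± 215 CPM in suprabasal-like and 2847 ± 379 CPM in basal-like cells. In that order of levels, placode-like and intermediate cells were neighbours whose difference did not pass the test for any of the 3 genes. A level in these sums is the gene's share of all UMIs of a class, so fewer transcripts of a gene and more transcripts of other genes cannot be told apart.

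**Figure D1:**
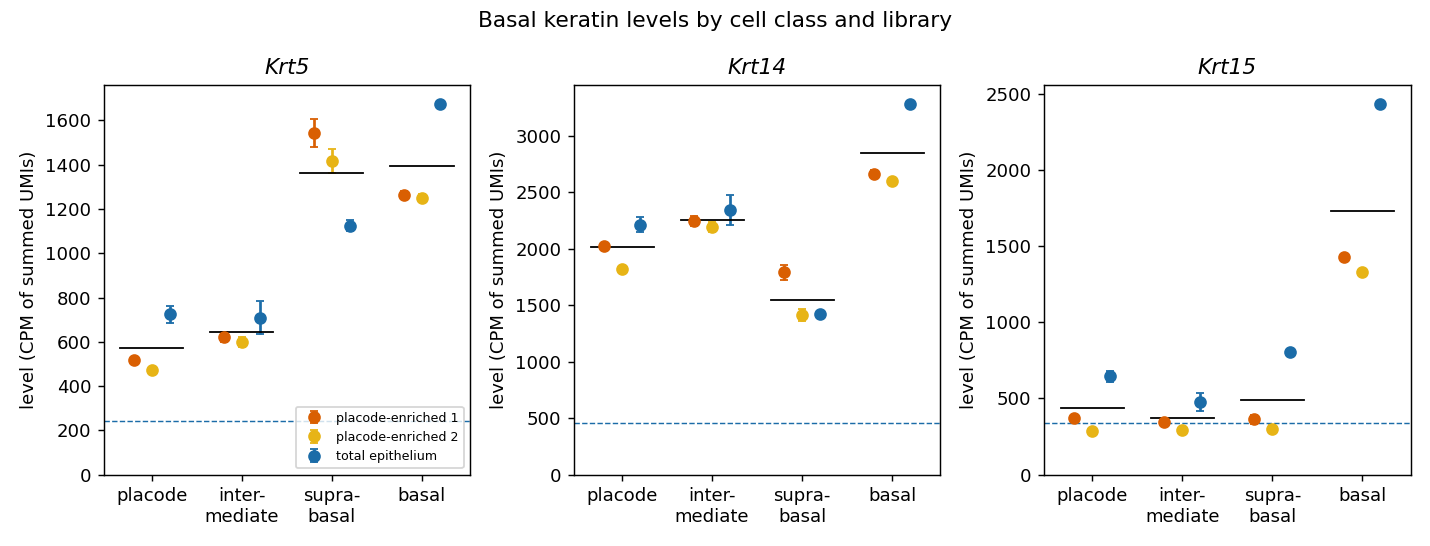
Levels of Krt5, Krt14 and Krt15 (vertical axis, CPM of UMIs summed over the cells of a class) in 4 cell classes, with 1 point per library, exact Poisson 95% intervals as bars and the mean of the 3 libraries as a black line. The dashed line is the level in 20 melanoblast-like cells (total epithelium library). It holds for that library only and does not carry over to the placode-enriched ones. In the placode-enriched libraries Krt15 lies between 288 and 371 CPM in placode-like, intermediate and suprabasal-like cells.

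Some keratin RNA was found in cells that should lack it. The 20 melanoblast-like cells of the total epithelium library, pigment cell precursors, held 243 CPM of Krt5 (exact 95% Poisson interval 201 to 292), 459 CPM of Krt14 (400 to 524) and 342 CPM of Krt15 (291 to 398). The 2 cells with fibroblast genes held 218, 546 and 382 CPM of Krt5, Krt14 and Krt15. In the whole total epithelium library the 3 genes stood at 1469, 2778 and 1934 CPM. Such a floor is read here as background of this library, and a level near it there is not read as expression. In the placode-enriched libraries only 1 melanoblast-like cell was found, with 2, 10 and 1 UMIs of the 3 genes, so the floor there could not be measured well. Krt15 over the whole of these libraries was 776 and 703 CPM, so the total epithelium floor does not carry over to them. Every interval given covers counting error only.

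Krt15 was lower in placode-like than in basal-like cells in each library. Krt15 stood at 371, 288 and 645 CPM in placode-like cells of placode-enriched library 1, placode-enriched library 2 and the total epithelium library, against 1427, 1330 and 2432 CPM in basal-like cells of the same libraries. The highest placode-like value lay below the lowest basal-like value. The share of all genes without overlap between classes is not given here, so such a gap, here and below, is a description only. The log2 difference was -2.03 ± 0.03 (SE, 3 libraries, adjusted p = 1.37e-37, edgeR quasi-likelihood test with the library as a block), the 150th largest among 6070 genes tested.

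Krt5 was also lower in placode-like cells, and by less than Krt15. It stood at 520, 471 and 724 CPM in placode-like cells, against 1263, 1251 and 1672 CPM in basal-like cells. The groups did not overlap, and the log2 difference was -1.30 ± 0.03 (SE, edgeR adjusted p = 1.19e-32). Krt14 changed least, with 2019, 1816 and 2212 CPM in placode-like cells, against 2663, 2596 and 3283 CPM in basal-like cells. Its log2 difference was -0.49 ± 0.03 (SE, edgeR adjusted p = 2.6e-20), and again the groups did not overlap. All 3 keratins were thus called lower in a comparison in which 40.8% of the genes tested were called, 20.1% as higher and 20.7% as lower.

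All 3 keratins were also lower in intermediate than in basal-like cells. Krt15 stood at 345, 294 and 475 CPM in intermediate cells, against 1427, 1330 and 2432 CPM in basal-like cells, a log2 difference of -2.26 ± 0.07 (SE, edgeR adjusted p = 1.21e-11). With the cells clustered at resolution 2 it was -1.51, and with doublets kept -1.73. Krt5 stood at 621, 600 and 707 CPM in intermediate cells, and its log2 difference from basal-like cells was -1.18 ± 0.07 (SE, edgeR adjusted p = 2.11e-09), or -0.77 at resolution 2. Krt14 stood at 2246, 2187 and 2338 CPM, with a log2 difference of -0.41 ± 0.07 (SE, edgeR adjusted p = 0.000185). The ranges of intermediate and basal-like cells overlapped for 0 of the 3 genes. By the edgeR test, a different measure, 32% of the genes tested were called, 17.9% as lower. Without the 2 cells with fibroblast genes the total epithelium values were 743, 2474 and 482 CPM for Krt5, Krt14 and Krt15, and the 3 differences remained below 0 and past the threshold.

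Placode-like and intermediate cells were not separated by any of the 3 genes at an adjusted p of 0.05. The log2 difference, placode-like over intermediate, was -0.13 ± 0.08 for Krt5, -0.08 ± 0.06 for Krt14 and 0.21 ± 0.08 for Krt15 (SE, edgeR adjusted p = 0.268, 0.405 and 0.0956), in a comparison in which 16.6% of the genes tested were called, 10.4% as higher and 6.22% as lower. With the cells with fibroblast genes left out, the differences were -0.19, -0.14 and 0.17 for Krt5, Krt14 and Krt15 (edgeR adjusted p = 0.0535, 0.113 and 0.107). Without the total epithelium library, which gave 34 intermediate cells, Krt5 and Krt14 passed, at -0.25 (edgeR adjusted p = 0.000219) and -0.15 (edgeR adjusted p = 0.00188). Krt15 was not stable here: it was 0.10 and -0.03 on the log2 scale in the placode-enriched libraries and 0.44 in the total epithelium library. With called doublets kept and the cells clustered anew it was -0.40 (edgeR adjusted p = 0.000576).

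Krt14 and Krt15 were lower in suprabasal-like than in basal-like cells, while Krt5 gave no call. Krt15 stood at 363, 302 and 804 CPM in suprabasal-like cells, against 1427, 1330 and 2432 CPM in basal-like cells, and the log2 difference was -1.95 ± 0.12 (SE, edgeR adjusted p = 1.03e-06), or -1.32 with the cells clustered at resolution 2. Krt14 stood at 1789, 1408 and 1425 CPM in suprabasal-like cells, against 2663, 2596 and 3283 CPM in basal-like cells, with a log2 difference of -0.95 ± 0.10 (SE, edgeR adjusted p = 4.22e-05). For both genes the groups did not overlap. In this comparison 33.3% of the genes tested were called, 17.8% as lower.

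For Krt5 the direction between these layers differed between the libraries. It stood at 1543 and 1415 CPM in suprabasal-like cells of the placode-enriched libraries, against 1263 and 1251 CPM in their basal-like cells, and at 1125 CPM in suprabasal-like cells of the total epithelium library, against 1672 CPM in its basal-like cells. The log2 difference was -0.10 ± 0.13 (SE, edgeR adjusted p = 0.607) over all libraries and 0.14 (edgeR adjusted p = 0.00248) without the total epithelium library. The difference between the gated libraries and the total epithelium library was itself tested. It was 0.69 ± 0.07 on the log2 scale for Krt5 (SE, edgeR adjusted p = 0.000324), 0.36 ± 0.10 for Krt14 (SE, edgeR adjusted p = 0.0905) and -0.57 ± 0.08 for Krt15 (SE, edgeR adjusted p = 0.00288), with 2.16% of genes called. The same test called Krt14 between intermediate and basal-like cells (1.21% of genes called), Krt5 and Krt15 between placode-like and intermediate cells (1.63% called) and none of the 3 keratins between placode-like and basal-like cells (1.17% called). It was added after the data had been seen, it takes the spread of the single ungated library to equal that of the gated ones, and the gate and the library cannot be told apart. The fit left 1 residual degree of freedom, so its p-values rest largely on variance borrowed from other genes.

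**Figure D2:**
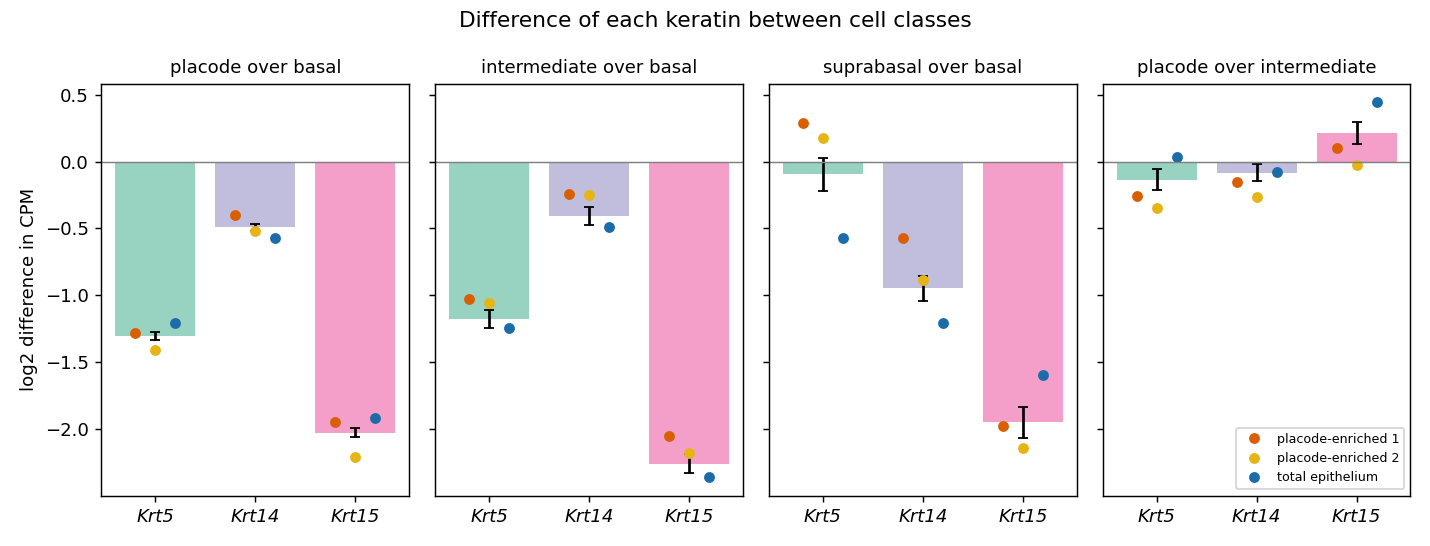
Log2 differences of Krt5, Krt14 and Krt15 between cell classes. Bars are edgeR estimates with their SE and points are the differences of plain CPM in each library, which lack edgeR's scaling between sums; Krt15 is near -2 against basal-like cells in all 3 classes, while Krt5 is between -1.41 and -1.21 in placode-like cells and between -0.57 and 0.29 in suprabasal-like cells.

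The suprabasal-like cells of the gated and ungated libraries were not alike in other keratins. Krt10 stood at 1090 and 1223 CPM in suprabasal-like cells of the placode-enriched libraries, against 3986 CPM in those of the total epithelium library. Krt1 stood at 771 and 803 CPM there, against 3022 CPM. Krt17 went the other way, at 3566 and 2777 CPM, against 508 CPM, and it shares 3′ sequence with Krt14. Whether Krt17 reads entered the Krt14 counts of these cells was not tested. The periderm list, the markers of the outer embryonic cell layer (5 of 6 genes measured), summed to 348 and 247 CPM in these cells of the placode-enriched libraries, against 220 CPM in the total epithelium library. In basal-like cells the list summed to between 29.1 and 30.7 CPM in every library. Grhl3 made up most of it, at 238 and 159 CPM in the placode-enriched libraries, against 186 CPM in the total epithelium library, which lay between them. Cldn6 stood at 105 and 82.2 CPM, against 24.5 CPM, and Sprr1a at 3.84 and 3.69 CPM, against 8.97 CPM. Krt4 and Krt6a were at or below 1.58 CPM in suprabasal-like cells of every library. The part of the other differences in the Krt5 result was not tested.

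Expressed as ratios of UMIs, the genes parted in 2 ways. A ratio of UMIs is not a ratio of transcripts, because capture differs between genes, so it is compared between classes only. Per 100 Krt5 UMIs, Krt15 had 71.3, 61.2 and 89.1 UMIs in placode-like cells, against 113, 106 and 145 in basal-like cells. The log2 change of this ratio was -0.72 ± 0.07 (SD, n = 3 libraries) in placode-like cells, -1.09 ± 0.05 in intermediate cells and -1.87 ± 0.73 in suprabasal-like cells, where clustering at resolution 2 gave -1.19. Each of the 3 classes lay below basal-like cells in every library, but an exact sign-flip permutation over 3 libraries cannot go below 0.25.

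Krt14 relative to Krt5 moved in opposite directions in placode-like and suprabasal-like cells. Per 100 Krt5 UMIs, Krt14 had 388, 386 and 305 UMIs in placode-like cells, against 211, 208 and 196 in basal-like cells, a log2 change of 0.80 ± 0.14 (SD, n = 3 libraries). Intermediate cells had 362, 364 and 331, a log2 change of 0.78 ± 0.03. Suprabasal-like cells had 116, 99.5 and 127, a log2 change of -0.85 ± 0.21 against basal-like cells. All placode-like and intermediate values lay above, and all suprabasal-like values below, the basal-like values of every library. Krt17, which shares 3′ sequence with Krt14, stood at 1000, 863 and 790 CPM in placode-like cells and 1375, 1195 and 1436 CPM in intermediate cells, against 432, 414 and 172 CPM in basal-like cells, and its part in the Krt14 ratios was not tested. Per 100 Krt14 UMIs, Krt15 changed by -1.53 ± 0.17 in placode-like, -1.87 ± 0.07 in intermediate and -1.02 ± 0.55 in suprabasal-like cells on the log2 scale (SD, n = 3 libraries), the last being -0.64 at resolution 2. At that resolution Krt14 to Krt5 was 0.43 in intermediate and -0.56 in suprabasal-like cells, and Krt15 to Krt14 was -1.20 in intermediate cells.

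**Figure D3:**
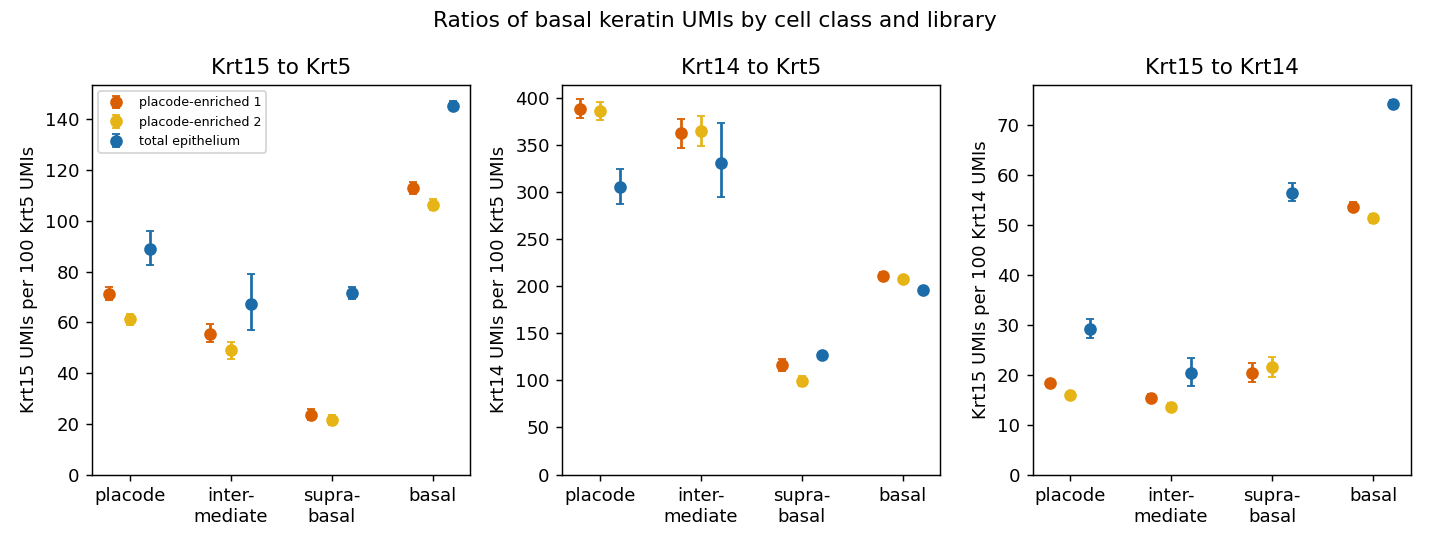
UMIs of a keratin per 100 UMIs of another (vertical axes) by class, with 1 point per library and exact 95% binomial intervals. Krt14 to Krt5 is high in placode-like and intermediate cells (305 to 388) and low in suprabasal-like cells (99.5 to 127), and Krt15 to Krt5 is highest in basal-like cells.

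The same pattern was seen within cells. Among cells with at least 5 UMIs of the pair, the median share of Krt15 in the Krt15 and Krt5 UMIs of a cell was 38.8%, 33.3% and 47.4% in placode-like cells, against 50.6%, 47.1% and 58.3% in basal-like cells. In suprabasal-like cells it was 9.09% and 11.6% in the placode-enriched libraries and 40% in the total epithelium library. The distributions of placode-like and basal-like cells overlapped widely: the 90th percentile of placode-like cells was 60%, 60% and 64.5%. The median share of Krt14 in the Krt14 and Krt5 UMIs was 80.7%, 80% and 77.4% in placode-like cells, against 68.2%, 67.7% and 66.2% in basal-like cells. In suprabasal-like cells it was 44.8%, 45.8% and 53.0%.

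**Figure D4:**
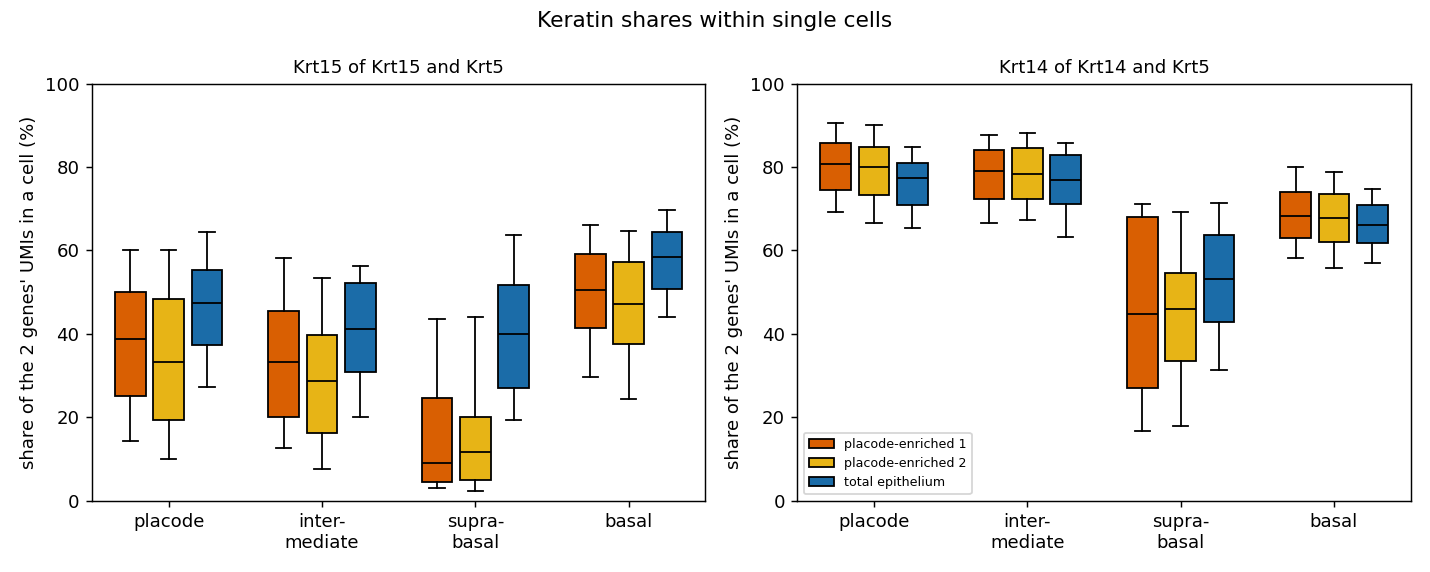
Share of Krt15 in the Krt15 and Krt5 UMIs of a cell (left) and of Krt14 in the Krt14 and Krt5 UMIs (right), by class and library. Boxes run from the 25th to the 75th percentile of cells with the median as a line, and whiskers from the 10th to the 90th; suprabasal-like cells of the placode-enriched libraries have the lowest Krt15 shares, with medians of 9.09% and 11.6%.

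Few cells lacked a keratin altogether. A UMI of Krt14 was present in every placode-like, intermediate, suprabasal-like and basal-like cell of the 3 libraries. Krt5 was missing from 6, 5 and 0 placode-like cells, against 0 basal-like cells in each library. Krt15 was missing from 40, 74 and 1 placode-like cells, against 3, 6 and 0 basal-like cells. With cells thinned to 5000 UMIs, Krt15 was seen in 70.7%, 60.9% and 95.8% of placode-like cells, against 95.5%, 94.2% and 99.6% of basal-like cells. It was also seen in 70% of the 20 melanoblast-like cells of the total epithelium library, thinned the same way. Their cluster had a median of 21750 UMIs before thinning, against 21383 in placode-like cells of placode-enriched library 1. With the floor of the placode-enriched libraries not well measured, these shares do not show how many placode-like cells expressed the gene.

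Among placode-like cells of the placode-enriched libraries, Krt5, Krt14 and Krt15 were all lowest in the cluster richest in Shh, a signal sent by placode cells. In this cluster (167 and 216 cells) Krt5 stood at 365 and 363 CPM in the placode-enriched libraries, and in the other 3 placode-like clusters it ranged from 447 to 594 CPM there. Krt15 stood at 198 and 179 CPM in the same cluster and from 289 to 516 CPM in the others. Krt14 stood at 1742 and 1631 CPM, and from 1781 to 2304 CPM in the others. The cluster is named by genes of the same cells, so these values are a description with no test.

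In the placode-enriched libraries, placode-like cells rich in Dkk4, a Wnt inhibitor of early placodes, held less of all 3 keratins than cells without it. In placode-enriched library 1, placode-like cells with 6 or more Dkk4 UMIs (thinned) held 429 CPM of Krt5, 1824 CPM of Krt14 and 316 CPM of Krt15, against 597, 2164 and 432 CPM in cells with 0. In placode-enriched library 2 the values were 362, 1651 and 205 CPM, against 539, 1947 and 345 CPM. In the total epithelium library Krt15 was at 420 CPM in 20 cells with 6 or more, against 756 CPM in 50 cells with 0, while Krt14 was at 2342 CPM against 2131 CPM. Krt14 was therefore higher in the cells rich in Dkk4 there, and no test was made over bins.

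Along Krt10, which rises as cells leave the basal layer, the 3 keratins fell at different steps in the total epithelium library. Suprabasal-like cells with 1 to 4 Krt10 UMIs (thinned) held 1744 CPM of Krt5, 2949 CPM of Krt14 and 1589 CPM of Krt15, against 1672, 3283 and 2432 CPM in basal-like cells. Krt15 was thus already below its basal-like level in cells where Krt5 was not. At 5 to 14 Krt10 UMIs the values were 1309, 1651 and 892 CPM, and at 15 to 49 they were 838, 700 and 490 CPM. At 50 or more (21 cells) they were 342, 473 and 354 CPM, close to the melanoblast-like level for Krt14 and Krt15. The bins held 49, 73, 149 and 21 cells of 1 library, and no test was made.

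**Figure D5:**
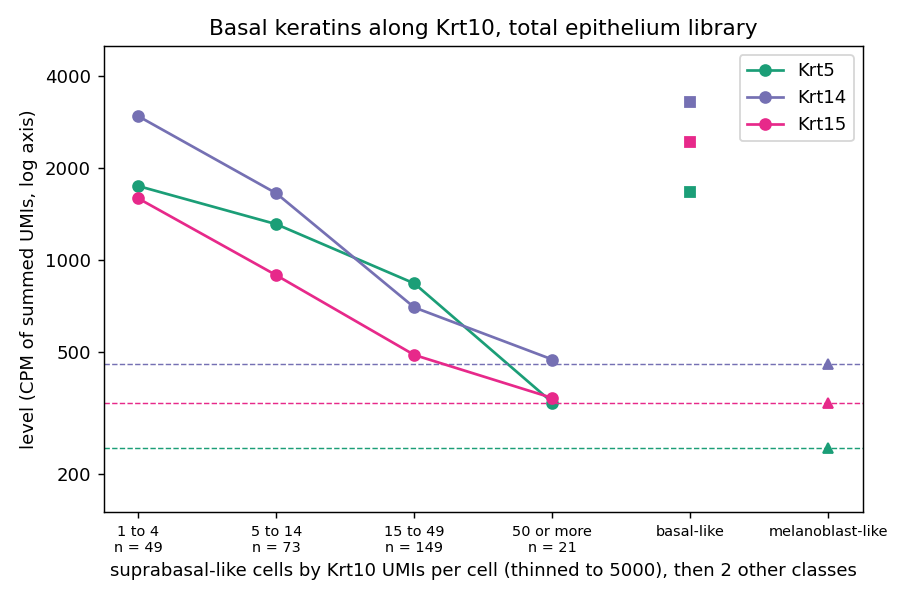
Levels of the 3 keratins (CPM, log axis) in suprabasal-like cells of the total epithelium library binned by Krt10 UMIs, beside basal-like (squares) and melanoblast-like (triangles, dashed lines) cells of that library. Each curve is read against its own square and triangle: Krt15 and Krt14 reach the melanoblast-like level in the last bin, at 354 and 473 CPM.

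In the placode-enriched libraries only the lowest Krt10 bin held 20 or more suprabasal-like cells. These 24 and 27 cells held 1487 and 1421 CPM of Krt5, 1553 and 1568 CPM of Krt14 and 264 and 284 CPM of Krt15. In the same bin of Krt10 counts the total epithelium cells held 1744, 2949 and 1589 CPM. Krt10 of basal-like cells also differed, at 58.0 and 47.2 CPM in the placode-enriched libraries, against 171 CPM in the total epithelium library. The bin may thus not hold cells of equal Krt10 in the 2 kinds of library, and no test was made.

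Basal-like cells also differed between the gated and ungated libraries, most of all in Krt15. Krt15 of basal-like cells in placode-enriched libraries 1 and 2 was 58.7% and 54.7% of that in the total epithelium library, Krt5 was 75.5% and 74.8%, and Krt14 was 81.1% and 79.1%. With 1 ungated library no permutation test can reach 0.05. Within the gated basal-like cells Krt15 was lower where Sostdc1 was high: cells with 8 or more Sostdc1 UMIs (thinned) held 1126 and 915 CPM of Krt15, against 1578 and 1447 CPM in cells with 0 or 1. Krt14 was 2755 and 2657 CPM in these cells, against 2634 and 2567 CPM. In the total epithelium library the Krt15 values were 1959 CPM against 2421 CPM.

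A small ungated group also combined high Sostdc1 with lower Krt15, but its Krt14 was lower as well. Cluster 10, which held most of its cells in the placode-enriched libraries, also took 21 basal-like cells of the total epithelium library. These held Sostdc1 at 1305 CPM and Krt15 at 1066 CPM, against Krt15 at 1293 and 1196 CPM in the same cluster of the placode-enriched libraries and between 2380 and 2566 CPM in clusters 0, 1 and 3 of the total epithelium library. Krt5 in these 21 cells was 1072 CPM and Krt14 was 2374 CPM, against 1620 to 1747 CPM and 3150 to 3519 CPM in clusters 0, 1 and 3.

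Krt15 of gated basal-like cells was close with and without transcripts of Mki67 or Top2a, genes of dividing cells, and in ungated ones it was lower with them. Basal-like cells with a UMI of Mki67 or Top2a held 1427, 1329 and 2382 CPM of Krt15, against 1427, 1341 and 2797 CPM in cells with neither. Cells with neither had fewer UMIs, with a median of 20008, against 27173 in placode-enriched library 1. In suprabasal-like cells of the total epithelium library, those with a UMI of either gene held 1197 CPM of Krt5, 1516 CPM of Krt14 and 846 CPM of Krt15, against 656, 829 and 529 CPM in those with neither.

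Across cells of a class the rank correlations between the genes ranged from low to moderate. In basal-like cells thinned to 5000 UMIs, Spearman's rho between Krt15 and Krt5 was 0.43, 0.43 and 0.39 (508, 532 and 1125 cells), and between Krt15 and Krt14 it was 0.07, 0.15 and 0.20. Between Krt14 and Krt5 it was 0.14, 0.29 and 0.31. In suprabasal-like cells of the total epithelium library the 3 values were 0.49, 0.53 and 0.60 (304 cells). The cells of a library share its preparation and depth, so the values are given without p-values. Thinned basal-like cells held medians of only 5 to 16 UMIs of these genes. Counting noise lowers rho at such counts, so the values do not show how closely the genes are coupled.

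Over the 12 sums of 4 classes in 3 libraries, Pearson's r of log2(CPM + 1) was 0.09 between Krt5 and Krt14, 0.60 between Krt5 and Krt15 and 0.65 between Krt14 and Krt15. The 5 genes most like Krt5 were Timp3, Gadd45b, H60c, Rreb1 and Dkc1, with r from 0.94 to 0.97 among 7690 genes. Timp3, a metalloproteinase inhibitor, averaged 6.25 CPM in placode-like, 7.59 in intermediate, 28.0 in suprabasal-like and 25.4 in basal-like cells. The genes most like Krt14 were Ctsl, Vwa5a, Htra1, Atxn10 and Ldhb (r from 0.95 to 0.97), and Ctsl, a cysteine protease, averaged 39.4 CPM in suprabasal-like and 197 CPM in basal-like cells. The genes most like Krt15 were Phgdh, Chchd10, Cth, Atp5o and Atp5l (r from 0.96 to 0.97). Phgdh, the first enzyme of serine synthesis, averaged 297 CPM in placode-like and 410 CPM in basal-like cells.

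Other keratins moved in both directions. Of 13 other keratins in the tables, Krt1 and Krt10 named the suprabasal class and are left out of the counts, a choice made after the data had been seen. Of 7 others tested between placode-like and basal-like cells, 4 were called higher and 2 lower, where 20.1% and 20.7% of all genes were (list median log2 difference 1.44, median of all genes -0.0032). Krt8 and Krt18, the pair of simple epithelia, were higher in placode-like cells by 2.37 ± 0.21 and 2.04 ± 0.11 on the log2 scale (SE, edgeR adjusted p = 5.02e-13 and 1.58e-19), and Krt16 by 1.70 ± 0.16 (SE, edgeR adjusted p = 2.17e-12). Krt8 was low even so, at 10.0 ± 1.34 CPM in placode-like and 1.77 ± 0.98 CPM in basal-like cells (SD, n = 3 libraries). Between suprabasal-like and basal-like cells 4 of 7 were called higher and 0 lower, where 15.4% and 17.8% of all genes were (list median 1.33, median of all genes -0.040). Krt77 averaged 66.2 ± 56.7 CPM in suprabasal-like and 2.98 ± 3.88 CPM in basal-like cells (log2 difference 4.53 ± 0.35, edgeR adjusted p = 5.7e-06). Between intermediate and basal-like cells 4 of 6 were called higher and 1 lower, where 14.1% and 17.9% of all genes were (list median 1.26). Krt17 averaged 1335 ± 125 CPM in intermediate and 339 ± 145 CPM in basal-like cells (log2 difference 1.95 ± 0.18, edgeR adjusted p = 4.69e-07).

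Genes that anchor basal keratin filaments to the basement membrane were counted without Dst, Col17a1, Itga6 and Itgb4, whose levels every basal-like cluster had to hold. Of the other 8 hemidesmosome and basement membrane genes, 5 were called lower and 1 higher in placode-like than in basal-like cells, where 20.7% and 20.1% of all genes were (list median -0.43, median of all genes -0.0032). Plec, which encodes the filament linker plectin, averaged 21.5 ± 4.21 CPM in placode-like and 38.6 ± 3.23 CPM in basal-like cells (SD, n = 3 libraries, log2 difference -0.75 ± 0.08, edgeR adjusted p = 9.73e-11). In intermediate cells 4 of the 8 were called lower and 1 higher, where 17.9% and 14.1% of all genes were (list median -0.17, median of all genes -0.026). In suprabasal-like cells 7 were called lower and 1 higher, where 17.8% and 15.4% of all genes were (list median -1.50, median of all genes -0.040). Of the naming markers, given as a description only, Dst, which encodes the keratin linker BPAG1, averaged 30.3 ± 2.82 CPM in placode-like and 110 ± 5.96 CPM in basal-like cells. Itgb4 averaged 21.6 ± 1.88 CPM in placode-like and 48.4 ± 5.30 CPM in basal-like cells.

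Desmosomal and other filament partners moved oppositely in placode-like and suprabasal-like cells. Of 14 such genes, 9 were called lower and 1 higher in placode-like than in basal-like cells, where 20.7% and 20.1% of all genes were (list median -0.58, median of all genes -0.0032). In suprabasal-like cells 13 were called higher and 0 lower, where 15.4% and 17.8% of all genes were (list median 1.68, median of all genes -0.040). The plakin Ppl averaged 3.20 ± 1.23 CPM in placode-like, 87.9 ± 6.08 CPM in suprabasal-like and 8.94 ± 2.75 CPM in basal-like cells (SD, n = 3 libraries). Its log2 difference from basal-like cells was -1.53 ± 0.17 in placode-like and 3.22 ± 0.14 in suprabasal-like cells (SE, edgeR adjusted p = 6.55e-10 and 1.56e-07). Vim, the intermediate filament gene of mesenchymal cells, was higher in intermediate cells, at 148 ± 34.4 CPM against 35.7 ± 16.4 CPM in basal-like cells (1.77 ± 0.21, edgeR adjusted p = 7.06e-06). The Vim values of intermediate cells include the cells with fibroblast genes, and their part was not tested.

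Of 22 transcription factors known to act on epidermal keratin genes, Trp63 and Ovol1 named classes and are left out of the counts. Among the other 20, 8 were called higher and 10 lower in placode-like than in basal-like cells, where 20.1% and 20.7% of all genes were (list median -0.28, median of all genes -0.0032). In suprabasal-like cells 14 were called higher and 2 lower, where 15.4% and 17.8% of all genes were (list median 1.48, median of all genes -0.040). Sp6 (epiprofin) averaged 12.4 ± 1.87 CPM in placode-like and 2.63 ± 0.13 CPM in basal-like cells (log2 difference 2.26 ± 0.15, edgeR adjusted p = 2.4e-16). Fosl2, an AP-1 subunit, averaged 11.1 ± 6.84 CPM in placode-like and 24.3 ± 3.11 CPM in basal-like cells (-1.48 ± 0.12, edgeR adjusted p = 6.75e-14). Zfp750, a regulator of terminal differentiation, averaged 155 ± 13.8 CPM in suprabasal-like and 5.75 ± 2.79 CPM in basal-like cells (4.65 ± 0.22, edgeR adjusted p = 2.62e-07).

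Markers of other cell types were looked at beside these results. The fibroblast list (6 of 8 genes measured) had a sum of 1321, 1173 and 1551 CPM in placode-like cells, 1073, 1075 and 1819 CPM in intermediate cells, 199, 148 and 271 CPM in suprabasal-like cells and 774, 670 and 843 CPM in basal-like cells. Dcn and Postn made up most of it in placode-like and basal-like cells. Col1a1, which defines fibroblasts, was at or below 0.295 CPM in placode-like, suprabasal-like and basal-like cells of every library, and at 165 CPM in intermediate cells of the total epithelium library, where the 2 cells with fibroblast genes lay. The suprabasal list summed to 334 and 294 CPM in basal-like cells of the placode-enriched libraries, against 1257 CPM in those of the total epithelium library. For placode-like cells the sum was 232 and 189 CPM, against 992 CPM. The part of these differences in the keratin levels was not tested.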

How the data were processed

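The tables deposited by the authors held raw UMI counts, whole numbers for each gene in each cell. Cell Ranger, Seurat and the build mm10 are named per the submitters' processing notes, and their versions, the strand setting and any filter on cells are not given in the sources used here. Both placode-enriched libraries shared a table, and the suffix of a barcode gave its library. Members, markers and gene lists were chosen with earlier results of these data known. The named genes follow a rule: the 3 keratins, per list the 3 largest changes past the threshold, and the 5 genes most like each keratin.

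Scrublet (through scanpy 1.11.5, expected rate 0.05) was run on each library for doublets, and 6, 2 and 18 cells were removed from placode-enriched libraries 1 and 2 and the total epithelium library. Few were called, so doublets can remain. Cells were clustered by Leiden's method in igraph 0.11.9 at resolution 1, from 30 components of the 1000 most variable genes and 20 neighbours each, with 7318 genes drawn by a hash of their names and none of the reserved ones. A class needed 6 of 8 placode markers at 25% of the highest cluster, 7 of 7 basal markers at 50% or 4 of 8 suprabasal markers at 25%. Such limits were chosen with the clusters in view, and the intermediate cluster met none of them.

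UMIs were summed per library and class, and edgeR 4.0.16 (R 4.3.3) fitted 6 sums per comparison with the library as a block, TMM scaling and the filterByExpr filter, and tested them by quasi-likelihood, since the classes of a library come from the same pool of embryos. Benjamini-Hochberg adjustment covered all genes not used to cluster, with a threshold of 0.05. SE is the log2 difference divided by the root of F, and it is not the spread over the 3 libraries. With 6 sums and a block few residual degrees of freedom remain, so very small p-values rest largely on variance borrowed from other genes. The placode-enriched libraries are biological replicates per the series design. The model was tested on simulated counts. Depth ran from 5343 to 59411 UMIs per cell, and sums of 34 to 1125 cells set the precision. Alternatives were DESeq2 1.42.0, its size factors, no filter on low counts, thinned cells, other clusterings, doublets kept, keratins left out of the library size, equal weights for cells, no block and leaving out each library. Transcripts and exons came from the GENCODE annotation of GRCm38.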

Additional observations from a re-analysis of the deposited data

Results flagged for a closer look

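Krt5 went in opposite directions between suprabasal-like and basal-like cells in the 2 kinds of library. Its log2 difference was 0.29 and 0.18 in the placode-enriched libraries and -0.57 in the total epithelium library. The difference between them was tested after it had been seen, taking the spread of the single ungated library to equal that of the others, and was 0.69 (edgeR adjusted p = 0.000324). Krt15 differed the other way in the same comparison, by -0.57 (edgeR adjusted p = 0.00288). Suprabasal-like cells of the placode-enriched libraries also held Krt17 at 3566 and 2777 CPM, against 508 CPM in the total epithelium library.

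Between placode-like and intermediate cells the log2 difference of Krt5 was -0.26 and -0.35 in the placode-enriched libraries and 0.035 in the total epithelium library. Without the 2 cells with fibroblast genes the total epithelium value was -0.038, so the opposite direction rests on them. The tested difference between the gated libraries and the total epithelium library was -0.43 for Krt5 (edgeR adjusted p = 0.0129) and -0.49 for Krt15 (edgeR adjusted p = 0.015), with 1.63% of genes called. Without these cells it was -0.34 and -0.46 (edgeR adjusted p = 0.137 and 0.0777).

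The ratio of Krt14 to Krt5 between the same classes changed by 0.10 and 0.081 on the log2 scale in the placode-enriched libraries and by -0.12 in the total epithelium library, and this difference was not tested. Krt14 between intermediate and basal-like cells differed by 0.33 on the log2 scale between the gated libraries and the total epithelium library (edgeR adjusted p = 0.00425, 1.21% of genes called). Without the cells with fibroblast genes this was 0.27. All these tests of the gated libraries against the total epithelium library left 1 residual degree of freedom.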

How the results depend on the processing

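Krt15 and Krt14 were lower than in basal-like cells in all 3 classes, and Krt5 in placode-like and intermediate cells, under every alternative that could be run, each with an adjusted p under 0.05. The values moved in other ways. Krt5 in suprabasal-like over basal-like cells was -0.10 and became 0.042 at resolution 0.5, and ranged from -0.24 to 0.14 when each library was left out.

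Between placode-like and intermediate cells Krt5 passed the threshold with thinned cells (-0.29), at resolution 2 (-0.51) and with doublets kept (-0.33), and ranged from -0.25 to -0.028 when a library was left out. Krt14 passed with doublets kept (-0.19) and ranged from -0.15 to -0.020. Krt15 passed with no filter on low counts (0.21), and was -0.57 at resolution 2 and -0.40 with doublets kept. The ratio of Krt15 to Krt5 between these classes was 0.41 with thinned cells, -0.025 at resolution 2 and -0.082 with doublets kept, that of Krt15 to Krt14 was -0.40 and -0.19 in the last 2, and that of Krt14 to Krt5 was 0.37 at resolution 2 and ranged from -0.017 to 0.091 when a library was left out. The cause was not tested. At resolution 2 and with doublets kept, 76.9% and 66.3% of the intermediate cells were found again. At resolution 0.5 and with the genes that had not been used no such cluster was found, so these comparisons have no value there.

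Against basal-like cells the log2 change of Krt15 to Krt5 in placode-like cells was -0.91 at resolution 0.5, -0.80 at resolution 2 and -0.81 with doublets kept. In intermediate cells it was -0.77 at resolution 2 and -0.73 with doublets kept. Krt15 to Krt14 in intermediate cells was -1.79 with thinned cells, -1.20 at resolution 2 and -1.42 with doublets kept. Krt14 to Krt5 there was 0.70 with thinned cells, 0.75 with cells weighted equally, 0.43 at resolution 2 and 0.69 with doublets kept. In suprabasal-like cells Krt14 to Krt5 was -0.56, Krt15 to Krt5 -1.19 and Krt15 to Krt14 -0.64 at resolution 2, and the Krt15 difference was -1.32. The Krt15 difference in intermediate cells was -1.51 at resolution 2 and -1.73 with doublets kept, and that of Krt5 -0.77 at resolution 2.

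Counts of genes called were 2475, 1873, 1958 and 888 for placode-like, intermediate and suprabasal-like over basal-like and placode-like over intermediate cells. Without the block for the library, which pairs classes of the same pool of embryos, they were 910, 1186, 1198 and 278. DESeq2 called 1324, 1080 and 272 in the first, second and last comparison. Thinned cells gave 1124, 836, 1019 and 411. Resolution 2 gave 1141 for intermediate over basal-like cells, and equal weights gave 461 for placode-like over intermediate cells. Leaving out a library gave 1497 to 2724, 735 to 2081, 1504 to 1765 and 159 to 1121. Counts fell by over 1.5 times in the first, second and last comparison without either placode-enriched library, to 1573, 1037 and 159 without library 1 and to 1497, 735 and 242 without library 2.

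Depth limits Krt15 in the low classes: a placode-like cell thinned to 5000 UMIs held a median of 1 Krt15 UMI in each placode-enriched library, and 96 placode-like and 34 intermediate cells stand behind the total epithelium values.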

Other observations

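In the total epithelium library the keratin floor could be subtracted, a step added after the data had been seen. With the melanoblast-like level taken off both classes, Krt15 was 303 CPM in placode-like, 133 CPM in intermediate and 462 CPM in suprabasal-like cells, against 2090 CPM in basal-like cells. The log2 differences from basal-like cells were then -2.78, -3.97 and -2.18, against -1.91, -2.36 and -1.60 without the subtraction. Krt5 in suprabasal-like cells was 882 CPM, against 1429 CPM in basal-like cells, a log2 difference of -0.70. Krt14 was 965 CPM in suprabasal-like cells, against 2824 CPM in basal-like cells, a log2 difference of -1.55. The floor rests on 20 cells, and no such value could be computed for the placode-enriched libraries. The intermediate values here include the cells with fibroblast genes.

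The unnamed cluster of 46 cells was led by Oasl2, Cldn3, Zfp750 and Cldn7. It held Krt5 at 846, 808 and 843 CPM, Krt14 at 2426, 1879 and 1967 CPM and Krt15 at 335, 274 and 432 CPM in placode-enriched library 1, placode-enriched library 2 and the total epithelium library (17, 25 and 4 cells).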
